A study of Mus musculus with 4 samples.

Results

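Genes of lipases and of phospholipase B-like enzymes were examined in the bone marrow of leukemic C57BL/6 mice. The genes are the acid lipase genes Lipo3 and Lipa, the vascular lipase genes Lpl, Lipg and Lipc, the intracellular neutral lipase genes Pnpla2, Lipe and Mgll, and the phospholipase B-like genes Plbd1 and Plbd2. They were chosen by symbol from the annotation of the array, and the choice was made with the genotype differences of Lipo3, Lpl and Plbd1 known. Of the 10 named genes, 9 were matched to a probe set among the 19938 genes measured, each to a single probe set. Lipc was not matched and is not analysed here.

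Both groups carried MLL-AF9, a fusion of the MLL and AF9 genes that drives acute myeloid leukemia. One group was labelled Hes1-null and the other wild type for Hes1, a gene for a transcriptional repressor that Notch signalling induces, and each group had 2 arrays of RNA from unsorted marrow. No treatment, age or time point is given in the sources used here, nor whether each array stands for 1 animal, how MLL-AF9 was introduced, or how much of the marrow was leukemic. The comparison bears on whether Notch signalling needs Hes1 to hold back this leukemia.

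Lipases cleave fatty acids from neutral fats. Lipoprotein lipase and its vascular relatives act on lipoproteins outside the cell, lysosomal acid lipase acts on lipids that the cell has taken up, and adipose triglyceride lipase, hormone-sensitive lipase and monoglyceride lipase act in turn on fat stored in droplets. Macrophages make lipoprotein lipase and depend on lysosomal acid lipase to empty ingested lipoproteins. Phospholipase B-like proteins are found in lysosomes and in granules of myeloid cells.

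Levels are log2 of the deposited intensity, and a difference is the Hes1-null mean minus the wild-type mean given with its SE, the standard error from limma's fit across all genes (n = 2 arrays a genotype). Levels of different genes come from different probes and are not set against each other. Hes1 itself did not check the labels: its level was 5.59 and 5.79 in wild type against 5.43 and 5.84 in Hes1-null marrow. Hes1-null therefore means labelled Hes1-null. The wild-type arrays were more alike than the Hes1-null arrays, with 0.547% and 3.43% of genes at least 2-fold apart within the respective genotype. Xist, the RNA of the inactive X chromosome, was 11.73 or higher on 3 arrays and 7.25 on Hes1-null replicate 2, which thus stood apart from the other arrays. Of the leukemia genes, Hoxa9 and Meis1 lay between 10.40 and 10.78 and between 9.18 and 9.81. The differences of the receptor genes Flt3 and Kit were 1.94 ± 0.30 and -1.60 ± 0.60 (adjusted p = 0.142 and 0.578 by limma). Kit lay at 9.02 and 8.87 in wild type and at 8.29 and 6.39 in Hes1-null marrow, so Hes1-null replicate 2 held most of its difference.

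Promoter windows of the acid lipase genes and of Plbd1 are shown first, because Lipo3 and Plbd1 had the clearest separation of the genotypes among the genes with a window and Lipa lies on the same chromosome as Lipo3. They are the 250 bases before the RefSeq start in GRCm38.p6, read on the minus strand, chr19:33590312-33590561 for Lipo3, chr19:34527475-34527724 for Lipa and chr6:136661894-136662143 for Plbd1. Capitals mark matches to the N-box CACNAG, a site type bound by Hes repressors, on either strand.
Lipo3: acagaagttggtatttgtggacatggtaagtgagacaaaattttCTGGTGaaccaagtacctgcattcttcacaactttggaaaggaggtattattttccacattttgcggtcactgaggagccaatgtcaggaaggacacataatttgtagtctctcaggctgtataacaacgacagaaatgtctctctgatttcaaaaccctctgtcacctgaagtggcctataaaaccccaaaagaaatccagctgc
Lipa: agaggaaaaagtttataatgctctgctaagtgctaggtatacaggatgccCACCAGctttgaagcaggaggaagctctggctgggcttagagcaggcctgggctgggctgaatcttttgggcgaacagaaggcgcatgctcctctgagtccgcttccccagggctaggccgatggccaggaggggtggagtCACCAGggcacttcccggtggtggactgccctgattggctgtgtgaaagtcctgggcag
Plbd1: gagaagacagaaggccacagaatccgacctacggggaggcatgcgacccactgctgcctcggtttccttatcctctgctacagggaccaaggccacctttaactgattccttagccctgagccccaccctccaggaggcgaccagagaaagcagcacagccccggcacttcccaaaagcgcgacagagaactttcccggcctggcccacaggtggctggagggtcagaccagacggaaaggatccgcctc
The Lipo3 window held 1 N-box match, the Lipa window 2 and the Plbd1 window 0, while 36.7% of 32851 RefSeq promoter windows of that length held at least 1. Other letters searched on both strands were the class C site CACGCG (in 7.62% of windows), the E-box CACGTG (6.02%), the CLEAR core TCACGTGA, which contains the E-box (0.785%), the ETS purine box GAGGAAGT (2.44%), the C/EBP palindrome TTGCGCAA (0.164%) and the direct repeat bound by PPAR receptors (0.0335%). None of these was found in the 3 windows shown. RefSeq windows were read for 7 of the 10 named genes, and none was read for Lpl, Lipg or Plbd2. Besides the windows shown, N-box matches were present in 1 window of Lipe (3 matches) and 1 of Lipc (2). Both windows of Mgll held them (1 and 2), and the Pnpla2 window held 0. An E-box was present in 1 window each of Lipe and Mgll, whose genes have 2 windows each, and class C sites only in the windows of Mgll. A match is a stretch of letters and not a measured site of binding.

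Of the acid lipases, Lipo3 was far lower in Hes1-null marrow and Lipa a little lower. Lipo3 (Entrez gene 381236), a member of the acid lipase family that lies in a cluster of related genes on chromosome 19, had a level of 7.74 on both wild-type arrays. On the Hes1-null arrays it was 3.90 and 4.34. The genotypes were separated by 3.40 between their nearest arrays, while the wild-type arrays were the same to 2 decimals. The difference was -3.62 ± 0.18, the most negative of all 19938 genes. The deposited values carry no detection calls. Hes1-null replicate 1 lay below 4.09, the highest level of 4 Y-linked genes on these arrays. With each Hes1-null array taken at no less than that level Lipo3 was 11.6-fold lower. This fold leaves out the spread between arrays: the 95% interval of the difference ran from -4.08 to -3.16.

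Lipa (Entrez gene 16889), which encodes lysosomal acid lipase, the enzyme that frees cholesterol and fatty acids from ingested lipoproteins, measured 10.26 and 10.25 in wild type. It measured 9.92 and 9.39 in Hes1-null marrow. Both Hes1-null arrays were below both wild-type arrays, by 0.32 at the nearest, which is less than the 0.54 between the Hes1-null arrays. The difference was -0.60 ± 0.21, and it came to -0.86 with Hes1-null replicate 1 left out and to -0.33 with Hes1-null replicate 2 left out. The Lipo3 relatives in the same cluster that were measured, Lipf, Lipk, Lipm and Lipn, differed by between -0.12 and 0.17, and all 4 had overlapping genotypes. Lipf and Lipk did not exceed 4.09 on any array. Lipo1, Lipo2, Lipo4 and Lipo5 were not matched to a probe set of their own. Whether the Lipo3 probe set also reads those near relatives was not tested. In a global alignment the Lipo3 promoter window shared 57.1% of aligned positions with that of Lipo2, 48.5% with Lipo1 and 49.3% with Lipo4, against 48.0% with the unrelated Plbd1. For the family members Lipf and Lipa the share was 47% and 46%. Likeness of promoters does not bear on what the probe set reads.

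Of the vascular lipases, Lpl was lower in Hes1-null marrow by several fold, and Lipg was lower with widely spread arrays. Lpl (Entrez gene 16956) encodes lipoprotein lipase, which releases fatty acids from circulating triglyceride-rich lipoproteins. Its level was 10.30 and 10.62 on the wild-type arrays and 8.23 and 7.23 on the Hes1-null arrays. The genotypes lay 2.06 apart at their nearest arrays, and the gap between the Hes1-null arrays was one that 3.41% of all genes reached. The difference was -2.73 ± 0.35, or 6.62-fold. It came to -2.23 with Hes1-null replicate 2 left out and to -3.23 with Hes1-null replicate 1 left out.

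Lipg (Entrez gene 16891), the gene of endothelial lipase, which acts mainly on phospholipids of high-density lipoprotein, measured 5.23 and 6.18 in wild type against 4.33 and 4.85 in Hes1-null marrow. The genotypes did not overlap, but the 0.94 between the wild-type arrays exceeded the 0.38 between wild type and Hes1-null at their nearest. A gap within wild type as wide as that of Lipg was seen in 0.657% of genes. The difference was -1.12 ± 0.35, and it was -0.64 without wild-type replicate 2 and -1.59 without wild-type replicate 1.

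The intracellular neutral lipases did not share the lower levels. Pnpla2 (Entrez gene 66853), encoding adipose triglyceride lipase, which starts the breakdown of stored triglyceride, lay at 10.05 and 9.95 in wild type and at 10.42 and 10.20 in Hes1-null marrow. Both Hes1-null arrays were above both wild-type arrays, and the difference was 0.31 ± 0.15. Lipe (Entrez gene 16890), encoding hormone-sensitive lipase, which acts next in that breakdown, lay at 9.11 and 9.07 and at 9.26 and 9.44, with a difference of 0.26 ± 0.16.

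Mgll (Entrez gene 23945), encoding the monoglyceride lipase that completes the breakdown and also degrades the endocannabinoid 2-arachidonoylglycerol, lay at 5.89 and 6.51 in wild type and at 6.23 and 5.58 in Hes1-null marrow. It was the only 1 of the 9 genes with overlapping genotypes. Its difference of -0.30 ± 0.30 had no stable sign: leaving out wild-type replicate 2 gave 0.02, and leaving out Hes1-null replicate 2 gave 0.03.

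The phospholipase B-like genes went apart. Plbd1 (Entrez gene 66857), whose product is a phospholipase B-like hydrolase known from neutrophils, measured 8.29 and 8.22 in wild type against 6.30 and 6.53 in Hes1-null marrow. The genotypes were 1.70 apart at the nearest, well above the gaps of 0.07 between the wild-type and 0.22 between the Hes1-null arrays. The difference was -1.85 ± 0.17, or 3.59-fold. Plbd2 (Entrez gene 71772), the gene of a related lysosomal protein, lay at 9.23 and 9.26 and at 9.54 and 9.47. Both Hes1-null arrays were higher, by a small 0.26 ± 0.15.

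**Figure D1:**
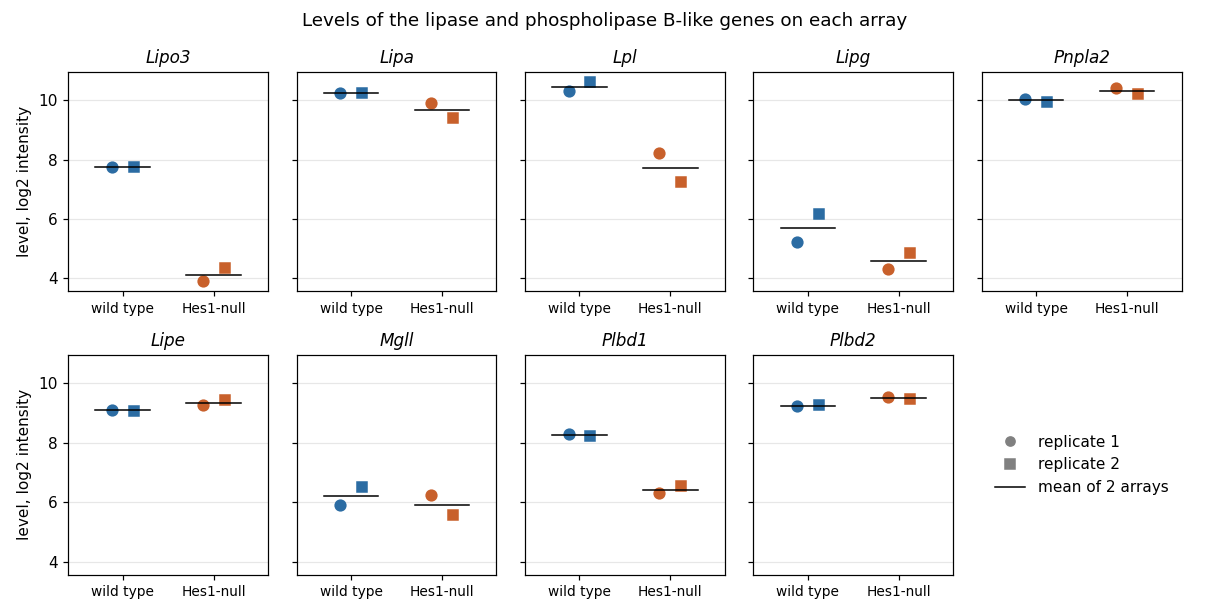
Levels (log2 intensity) of the 9 measured genes on each array, wild type in blue and Hes1-null in orange, with circles for replicate 1, squares for replicate 2 and a line at the mean of each genotype. Lipo3, Lpl and Plbd1 show a wide gap between the genotypes, and Mgll is the gene whose genotypes overlap; heights are not comparable between panels.

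Over the 9 genes the differences ran from -3.62 to 0.31 with a median of -0.60, where the median of all genes was -0.02. The genotypes did not overlap for 8 of the 9, 5 lower and 3 higher in Hes1-null marrow, against 38.0% of all genes, 20.6% lower and 17.4% higher. In limma's test across all genes Lipo3 and Plbd1 passed an adjusted p of 0.05, 2 of 9 and both lower, against 0.145% of all genes in either direction and 0.0752% lower. The genes were chosen with this contrast known, so nothing is read from these counts. With 1 array left out, that genotype has 1 array and only the other genotype's pair of arrays supplies the spread, so such a call assumes that the lone array varies like that pair. On that footing Lipo3 was called in each of the 4 cases. The call of Plbd1 ended without wild-type replicate 1, wild-type replicate 2 or Hes1-null replicate 2, where 0.176%, 0.0301% and 0.0752% of all genes were called. Lipa and Lpl passed as well without Hes1-null replicate 1, where the spread is that of the closely matched wild-type arrays and 5.01% of all genes passed. The gap between the Hes1-null arrays was wider than that between the wild-type arrays for 8 of the 9 genes, which was so for 72.1% of all genes.

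**Figure D2:**
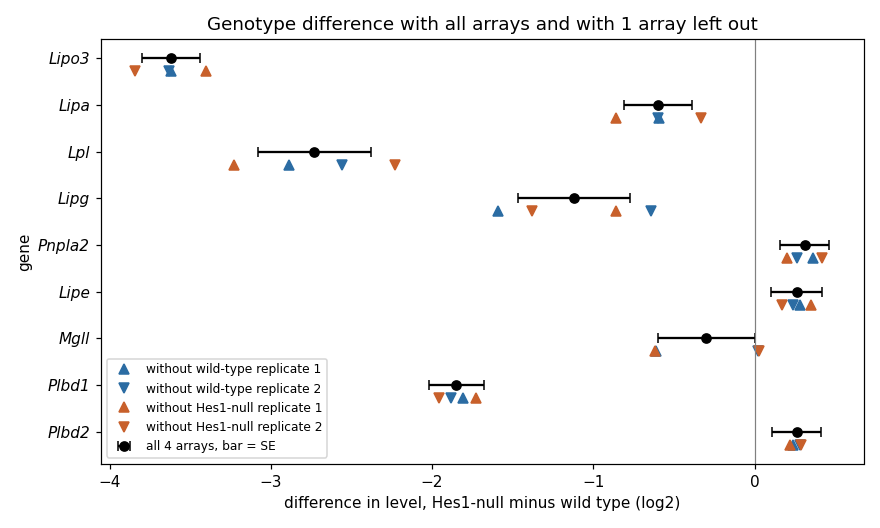
Difference in level (log2, Hes1-null minus wild type) of each gene with all 4 arrays (black, bar = SE) and with 1 array left out (triangles). The differences of Lipo3 stay between -3.84 and -3.40 and those of Plbd1 between -1.96 and -1.73, those of Lpl and Lipg spread more widely, and Mgll reaches 0.

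Genes beside the lipases on their chromosomes were read to see whether a lower level extended to them. Of the 8 nearest measured genes of each of Lipo3, Lpl and Plbd1, 0 passed limma's test, against 0.145% of all genes. With so small a share, 0 of 8 says little about these neighbours. Around Lipo3 the differences ran from -1.71 to 0.17 with a median of -0.07. The neighbour at -1.71 ± 0.20 was Papss2, which makes the sulfate donor of the cell, at 9.58 and 9.89 in wild type and at 8.16 and 7.89 in Hes1-null marrow (adjusted p = 0.0848 by limma). The nearest measured genes on the 2 sides of Lipo3, Rnls and Lipf, differed by -0.52 ± 0.34 and 0.17 ± 0.16. Relatives of Lipo3 without a probe set of their own could not be read. Around Lpl the range was -0.75 to 0.09 and the median -0.08, and around Plbd1 it was -0.29 to 0.38 with a median of -0.09. At an adjusted p of 0.05 the same count was 0 of 8 beside each of the other 6 genes, by the same test. Beside Lipe, Ceacam2 was higher by 1.56 ± 0.15 with an adjusted p of 0.0515 by limma.

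**Figure D3:**
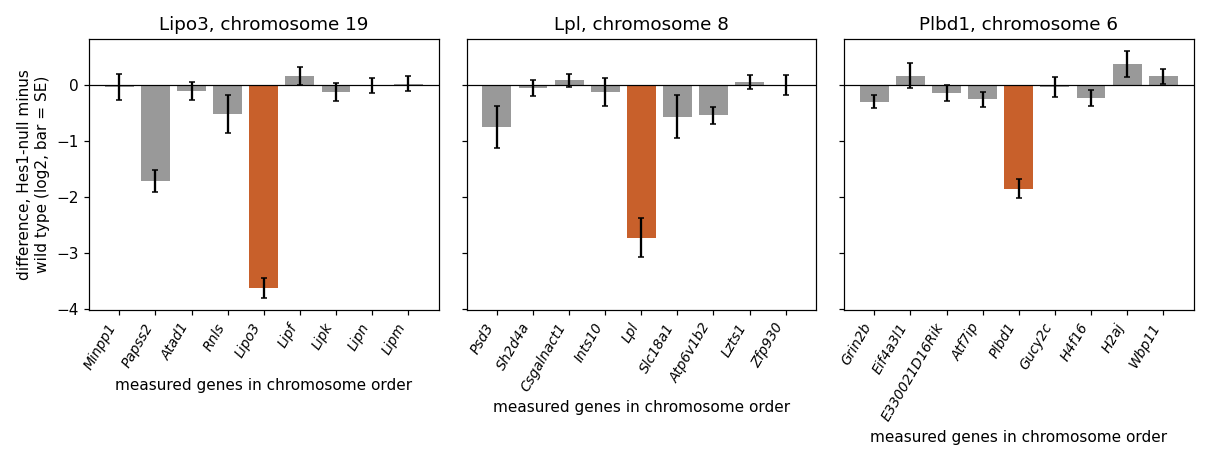
Difference in level (log2, Hes1-null minus wild type, bar = SE) of Lipo3, Lpl and Plbd1 (orange) and of the 4 nearest measured genes on each side in chromosome order (grey). Apart from Papss2 near Lipo3, the neighbours lie between -0.75 and 0.38.

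The genes with the most similar pattern were taken by the distance between log2 profiles over the 4 arrays, each profile centred on its mean. By this measure a gene is near only where its genotype difference is of similar size. Nearest to Lipo3 were the lactoferrin gene Ltf (distance 0.94), Fnbp1l (0.94), the desmoplakin gene Dsp (0.95) and the myeloid membrane protein gene Ms4a3 (0.98). Nearest to Lpl were the interleukin-36 receptor gene Il1rl2 (0.37), Frmd4b (0.51), Akr1e1 (0.56) and the fractalkine receptor gene Cx3cr1 (0.58). Nearest to Plbd1 were Pid1 (0.15), the ribonuclease gene Rnase2a (0.16), Rnf17 (0.18) and Plekhh2 (0.25).

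Among partners of lipoprotein lipase and receptors for lipoproteins, 17 of 20 genes were measured and 0 passed limma's test over all genes. At an unadjusted p of 0.05, 2 were higher and 3 lower, and the list median was -0.08. The scavenger receptor gene Msr1 lay at 7.23 and 7.39 in wild type and at 6.14 and 6.18 in Hes1-null marrow (-1.15 ± 0.15). The fatty acid and lipoprotein receptor gene Cd36 lay at 4.51 and 4.34 in wild type, not far above the highest Y-linked level of 4.09. Both Hes1-null arrays, at 3.52 and 3.73, lay below that level, and with them taken at it Cd36 was 1.26-fold lower. Scarb1, the receptor gene for high-density lipoprotein, differed by -0.40 ± 0.13. Apoc1, the gene of an apolipoprotein known to inhibit lipoprotein lipase, went the other way, at 6.67 and 7.06 against 8.12 and 8.13 (1.26 ± 0.19). The genes that lipoprotein lipase needs for folding and for its place on capillaries, Lmf1 and Gpihbp1, differed by -0.05 ± 0.15 and -0.19 ± 0.21.

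Genes of neutral lipolysis and lipid droplets were measured for 23 of 23 names, with 0 called by limma and a median of -0.16. At an unadjusted p of 0.05, 1 was higher and 3 lower. The droplet coat gene Plin2 lay at 10.79 and 11.08 in wild type and at 10.39 and 10.17 in Hes1-null marrow (-0.65 ± 0.16). The fatty acid binding protein genes Fabp4 and Fabp5 differed by -0.79 ± 0.14 and -0.69 ± 0.22. Hilpda, which encodes an inhibitor of adipose triglyceride lipase, differed by 0.48 ± 0.16. Abhd5, the gene of that lipase's activator, and G0s2, the gene of another of its inhibitors, differed by -0.43 ± 0.26 and -0.22 ± 0.17.

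Of the genes for lysosomal lipid handling 19 of 22 were measured, with 0 called by limma, 1 higher and 3 lower at an unadjusted p of 0.05, and a median of -0.09. The 3 lower ones were the hexosaminidase gene Hexa (-0.60 ± 0.15), the acid ceramidase gene Asah1 (-0.55 ± 0.17) and the saposin precursor gene Psap (-0.38 ± 0.12). Npc1 and Npc2, whose products carry cholesterol out of the lysosome, differed by 0.06 ± 0.17 and -0.31 ± 0.18. The cholesterol exporter gene Abca1 lay at 6.13 and 6.55 in wild type and at 6.90 and 9.53 in Hes1-null marrow, so that Hes1-null replicate 2 held most of its difference of 1.87 ± 0.82. Tfeb, encoding a regulator of lysosomal genes, differed by 0.28 ± 0.18.

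Of the nuclear receptor and SREBP genes 11 of 12 were measured, 0 were called by limma, 2 were higher and 1 lower at an unadjusted p of 0.05, and the median was 0.03. The lower gene was Srebf2, the regulator of cholesterol synthesis (-0.65 ± 0.16). Pparg, the gene of a receptor known to drive Lpl, lay at 8.44 and 8.14 in wild type and at 8.17 and 6.84 in Hes1-null marrow, with a low value on Hes1-null replicate 2 alone (-0.78 ± 0.44). Of the fatty acid oxidation genes 18 of 20 were measured and 0 were called by limma, with 0 higher and 2 lower at an unadjusted p of 0.05 and a median of -0.18, which was -0.47 without Hes1-null replicate 1 and became 0.06 when Hes1-null replicate 2 was left out. The lower genes were Cpt1a, which controls the entry of fatty acids into mitochondria (-0.99 ± 0.20), and Ehhadh of peroxisomal oxidation (-0.80 ± 0.21). Of the other lipases and phospholipases A in the list 15 of 16 were measured and 0 were called by limma, with 0 higher and 2 lower at an unadjusted p of 0.05. These were the diacylglycerol lipase gene Daglb (-0.77 ± 0.20) and Pnliprp2 (-0.35 ± 0.14), and the lysosomal phospholipase gene Pla2g15 differed by -0.68 ± 0.27. The shares of all genes at that unadjusted threshold were 3.51% higher and 4.78% lower. Without Hes1-null replicate 1, Hes1-null replicate 2 alone is set against the wild-type pair, which then supplies all the spread, and 5.01% of all genes were called. Among them were Furin, Sdc1 and Msr1 of the lipoprotein list, Cideb of the droplet list, Abca1 and Abcg1 of the lysosomal list, Pparg and Srebf2, Etfb and Decr1 of fatty acid oxidation, and Daglb and Pla2g15. These calls describe that 1 array and not the genotype.

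Markers of monocytes, macrophages and neutrophils were lower alongside Lipo3, Lpl and Plbd1. In bulk marrow, fewer cells of a type and less RNA per cell cannot be told apart. Of 18 measured monocyte and macrophage markers 13 were lower on both Hes1-null arrays, against 20.6% of all genes, and 1 was called by limma, Vcam1 (-2.62 ± 0.17). The summed intensity of the list was 7675 and 7882 in wild type and 5014 and 5367 in Hes1-null marrow. The list was mixed: Cx3cr1 differed by -2.43 ± 0.30 and Csf1r by -1.10 ± 0.27, but Cd68 by 0.23 ± 0.10 and C1qa by 0.01 ± 0.14. Of 15 measured neutrophil markers 11 were lower on both Hes1-null arrays and 1 was called, Ltf (-2.77 ± 0.23). The granule protease genes Elane and Prtn3 differed by -1.61 ± 0.18 and -0.80 ± 0.10 and the surface protein gene Cd177 by -1.69 ± 0.32. This list was mixed as well: the collagenase gene Mmp8 was higher on both Hes1-null arrays (0.95 ± 0.40), and Lcn2, Ngp and Cxcr2 had overlapping genotypes. The summed intensity of the list was 34723 and 43684 in wild type and 19386 and 19331 in Hes1-null marrow. No marker of these lists lay at or below 4.09 on all arrays. The calls of Vcam1 and of Ltf both ended when wild-type replicate 2 was left out, and again when Hes1-null replicate 2 was. In a list of lymphoid and erythroid markers 7 of 12 measured genes, all lymphoid, were lower on both Hes1-null arrays and 0 higher, with a median of -0.33. The erythroid genes Klf1 and Epor had overlapping genotypes and differed by 0.03 ± 0.18 and 0.00 ± 0.13. The summed intensity of the list was 845 and 1136 in wild type against 654 and 479 in Hes1-null marrow. By limma 0 of the 12 were called. At an unadjusted p of 0.05 there were 0 higher and 3 lower, against 3.51% and 4.78% of all genes. Among the lower ones was Klrb1c, which did not exceed 4.09 on any array. Another was the cytotoxic cell gene Nkg7 (-2.08 ± 0.61), at 8.13 and 9.26 in wild type and at 7.41 and 5.82 in Hes1-null marrow. Nkg7 held most of the fall in the summed intensity. The part of these cells in the lower levels of Lipo3, Lpl and Plbd1 was not tested.

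Of the markers of adipocytes, a major source of lipoprotein lipase, the defining adiponectin gene Adipoq lay between 3.61 and 4.37 on the 4 arrays, near the highest Y-linked level of 4.09, and Cidec, a droplet gene of fat cells, between 5.78 and 5.88. Of the 8 measured adipocyte markers 0 were called by limma (0 higher and 1 lower at an unadjusted p of 0.05), and their summed intensity was 396 and 416 in wild type against 334 and 390 in Hes1-null marrow. The 1 lower gene was Fabp4, which macrophages also express. Of 15 measured stromal and endothelial markers 0 were called (1 higher and 3 lower at an unadjusted p of 0.05, by limma). Sparc, a matrix gene of stroma, and Cxcl12, a chemokine gene of the niche, differed by -0.99 ± 0.15 and -0.87 ± 0.15, and the endothelial gene Cdh5 by 0.01 ± 0.12. The endothelial receptor gene Kdr differed by -0.54 ± 0.13. Of the 15 genes 8 were lower on both Hes1-null arrays, against 20.6% of all genes. Lepr, 1 of these 8, did not exceed 4.09 on any array. Only Pdgfrb, a receptor gene of stromal cells, was higher on both (0.80 ± 0.27), which was so for 17.4% of all genes. The summed intensity of that list, to which Pdgfrb adds in the other direction, was 1675 and 1782 in wild type and 1787 and 1610 in Hes1-null marrow.

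**Figure D4:**
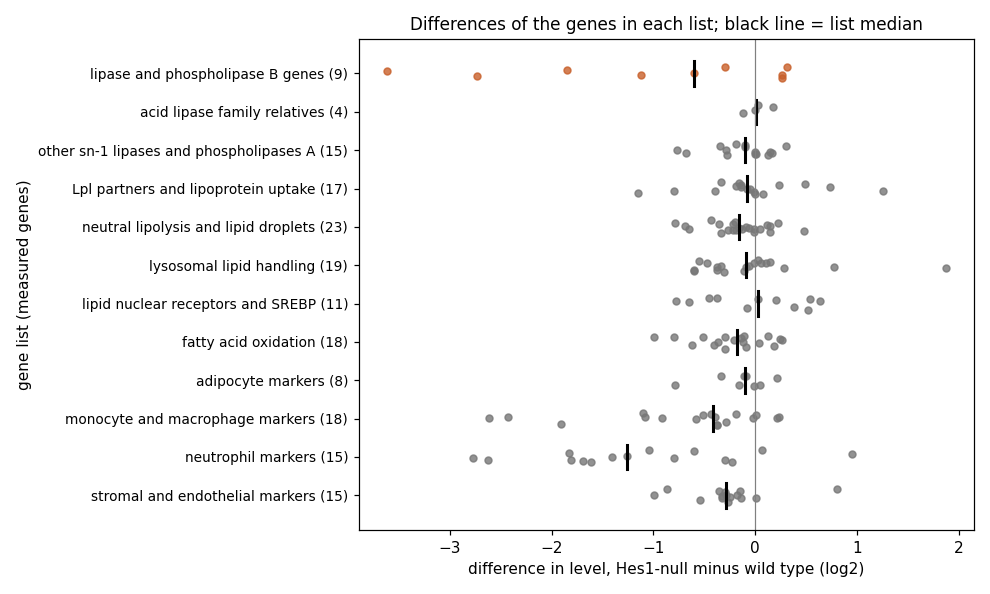
Difference in level (log2, Hes1-null minus wild type) of every measured gene in each list, 1 point per gene, with the list median as a black line and the number of measured genes in brackets. The 9 lipase and phospholipase B genes (orange) spread from -3.62 to 0.31, while the medians of the lipid lists lie between -0.18 and 0.03 and that of the neutrophil markers at -1.26 (-0.77 when wild-type replicate 2 was left out, -0.76 when Hes1-null replicate 1 was).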

How the data were processed

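RNA of 4 marrow samples was measured on Affymetrix mouse gene arrays. The deposited values are linear probe set intensities that, per the submitters' processing notes, the authors made with Expression Console and RMA (versions and array build not given in the sources used here). RMA scales arrays to one another, so a difference in total RNA would not show. Log2 was taken here with nothing added. Of 35556 probe sets, 21789 had 1 gene symbol, and the brightest stood for each of 19938 genes, with no filter.

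Genotypes came from the labels. All genes were fitted with limma 3.58.1 in R 4.3.3 (lmFit, eBayes with an intensity trend, two-sided, genotype only, Benjamini-Hochberg over all genes, threshold 0.05), with 2 residual and 3.41 prior degrees of freedom. On simulated data of 19938 genes it recovered 11.8% of genes changed 2-fold and 87.4% of those changed 4-fold. The simulation gave both genotypes the same spread and planted changes of up to 16-fold, whereas the Hes1-null arrays here lay further apart than the wild-type arrays. Its shares may therefore be too high for these data, where Lpl, 6.62-fold lower, was not called. Most 2-fold changes would not be called. P-values set a genotype difference against the spread between arrays of the same genotype, which may be technical, and 2 arrays per genotype limit the precision.

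The genes and lists were chosen with earlier results of these data known. From each list, called genes and up to 4 with the smallest unadjusted p were to be named, with the first markers of each marker list. Lmf1, Gpihbp1, Abhd5, G0s2, Npc1, Npc2, Tfeb, Pparg, Abca1, Pla2g15, Csf1r, C1qa, Mmp8, Cxcr2, Furin, Cideb, Etfb, Decr1, Cidec, Cdh5, Ceacam2, Hoxa9 and Meis1 were named for their role, or their value, whether or not that rule gave them. The hepatocyte list (4 measured) had 0 calls by limma, with 0 genes at an unadjusted p of 0.05 and a median of 0.00. The list of leukemia driver targets (6 measured) had 0 calls by limma, with 1 gene higher and 1 lower at an unadjusted p of 0.05 and a median of 0.23. Alternatives are given in the closing section.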

Additional observations from a re-analysis of the deposited data

How the results depend on the processing

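Alternative settings changed how many genes were called more than they changed the lipase values. By limma 29 genes were called over all genes, against 89 with the replicate number as a block, 45 with array weights, 17 and 5 with genes below the 25th percentile or the median of level left out, and 0 over all 35556 probe sets, a setting added after seeing the data (2809 at an unadjusted p of 0.05). With 1 array left out the number ran from 6, without wild-type replicate 2, to 999, without Hes1-null replicate 1. Of the 9 lipase and phospholipase B genes 2 were called, Lipo3 and Plbd1. The number was 1, Lipo3, with robust estimation and at the 25th percentile filter, and 0 at the median filter, which drops Lipo3, and with all probe sets; with 1 array left out it ran from 1 to 4. Their median of -0.60 was -0.17 at the median filter, over the 6 genes left, and ran from -0.86 to -0.33 with 1 array left out. The replicate block added the call of Lpl, as array weights did. Replicate numbers are not shown to pair the arrays: deviations of same-numbered arrays correlated at 0.0505 across genes. With a pseudocount of 16 Lipo3 differed by -2.78 and Plbd1 by -1.67. Medians of several lipid lists were near 0 and changed sign with 1 array left out: that of the other lipases and phospholipases A was 0.01 and that of lysosomal genes 0.01 without wild-type replicate 2, and that of the nuclear receptor list -0.07 without wild-type replicate 2 and -0.12 when Hes1-null replicate 2 was left out. The sign of each gene except Mgll held under every alternative run.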

Other observations

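Other enzymes of lipid turnover, taken by symbol after the values were seen, were read in 11 families with 131 measured genes: phospholipases A2, C and D, alpha/beta hydrolase domain genes, carboxylesterases, acyl-CoA thioesterases and synthetases, lipoxygenases, elongases and desaturases, lysophospholipid acyltransferases and lipid phosphatases. By limma 0 passed an adjusted p of 0.05, against 0.145% of all genes. At an unadjusted p of 0.05, 9 were higher and 6 lower in Hes1-null marrow, against 3.51% and 4.78% of all genes. Their median difference was -0.04, and 3 genes were at least 2-fold apart. Abhd4, which encodes a lysophospholipase of the N-acylethanolamine pathway, measured 7.63 and 7.53 in wild type against 9.06 and 9.34 in Hes1-null marrow (1.62 ± 0.18, adjusted p = 0.0788 by limma). The elongase gene Elovl7 lay at 9.11 and 8.85 in wild type and at 8.03 and 7.87 in Hes1-null marrow (-1.03 ± 0.18). Elovl4, an elongase of very long fatty acids, lay at 6.30 and 6.00 in wild type and at 8.62 and 6.84 in Hes1-null marrow, so its difference of 1.57 ± 0.57 rested mainly on Hes1-null replicate 1. The lipoxygenase gene Alox12, known from platelets, differed by -0.69 ± 0.14, and the acyl-CoA thioesterase gene Acot9 by -0.85 ± 0.19, with both Hes1-null arrays below both wild-type arrays in each case.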
